A study of Homo sapiens with 12 samples.

Results

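The genes described here are 9 genes of anthracycline transport and carbonyl reduction, taken by symbol from the count table of HL-60 cells: the exporters ABCB1, ABCC1 and ABCG2, the carrier SLC22A16, and the reductases CBR1, CBR3, AKR1A1, AKR1B1 and AKR7A2. All 9 were among the 42157 genes counted, and 6 of them were among the 13696 genes with enough reads to be tested. HL-60 is a promyelocytic acute myeloid leukemia cell line, so that every group rests on cells of 1 line. Polyadenylated RNA was sequenced from cells exposed for 3 h to 0.5 µM ML-792 together with 1 µM DNR (ML-792+DNR), to 1 µM DNR, to 0.5 µM ML-792, or to the solvent DMSO, with 3 libraries in each group from independent experiments. DNR (daunorubicin) is an anthracycline used against this leukemia, and ML-792 blocks the enzyme that activates the modifier SUMO. No gene was deleted or introduced in any group. Levels are given in CPM, the reads of a gene scaled to a common library size with TMM factors, and a gene passed a test at a Benjamini-Hochberg adjusted p below 0.05 over all genes tested.

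Anthracyclines enter cells largely by diffusion, with a contribution of organic cation carriers, and are pumped out by ATP-binding cassette exporters. Inside the cell, carbonyl and aldo-keto reductases use NADPH to turn the side-chain ketone of daunorubicin into an alcohol, daunorubicinol, which is less toxic to leukemic cells and is linked to heart damage. Both routes are known as ways in which leukemic cells become less sensitive to the drug.

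The libraries held 28.6 to 46.5 M reads in genes. The share of reads from mitochondrially encoded genes was 4.01% to 6.37% in the 4 replicate 1 libraries and 2.49% to 3.48% in the other 8. Of the 5 HL-60 markers, the granule gene MPO was at 10090 to 12200 CPM, PRTN3 at 69.0 to 777, AZU1 at 25.8 to 112, the surface marker CD33 at 58.3 to 94.6, and ELANE, the elastase gene, at only 0.324 to 4.03. Markers of T and B lymphocytes (2 of 4 at 0), erythroid cells (2 of 3), epithelial and stromal cells (2 of 4) and platelets (1 of 2) summed to at most 0.403 CPM in any library.

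The promoters of the 3 reductase genes that passed a test upward are printed here because the gene lists below include factors known to bind such elements. Of the 9 genes, 7 matched the promoter table. Each run is the 250 bases before the start site in RefSeq on GRCh38.p14. Capitals mark the GC box GGGCGG, the CCAAT box CCAAT, the E-box CACGTG and the xenobiotic response core GCGTG, each searched on both strands.
CBR1 (chr21:36069774-36070023, plus strand): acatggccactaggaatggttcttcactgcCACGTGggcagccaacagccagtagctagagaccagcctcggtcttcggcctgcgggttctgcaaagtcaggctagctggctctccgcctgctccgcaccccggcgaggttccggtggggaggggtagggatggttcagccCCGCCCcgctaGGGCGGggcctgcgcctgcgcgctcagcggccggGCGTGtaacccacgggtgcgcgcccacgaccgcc
AKR1A1 (chr1:45550576-45550825, plus strand): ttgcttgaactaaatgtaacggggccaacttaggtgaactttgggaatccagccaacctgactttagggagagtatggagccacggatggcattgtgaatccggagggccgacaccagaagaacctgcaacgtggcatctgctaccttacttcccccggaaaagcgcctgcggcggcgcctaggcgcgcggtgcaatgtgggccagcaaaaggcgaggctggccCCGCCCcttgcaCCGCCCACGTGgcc
AKR7A2 (chr1:19312147-19312396, minus strand): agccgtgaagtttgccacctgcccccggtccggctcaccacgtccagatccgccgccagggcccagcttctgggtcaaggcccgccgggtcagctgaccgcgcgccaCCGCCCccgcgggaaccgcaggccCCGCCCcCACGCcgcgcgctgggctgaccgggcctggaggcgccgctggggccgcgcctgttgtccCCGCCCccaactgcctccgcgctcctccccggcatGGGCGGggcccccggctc
The CBR1 run held 2 GC boxes, 1 E-box and 1 xenobiotic response core, the AKR1A1 run 2 GC boxes and 1 E-box, and the AKR7A2 run 4 GC boxes and 1 xenobiotic response core. In AKR1A1 the E-box shares its first base with a GC box. None of these runs held a CCAAT box. Of 35116 promoter windows of the same length, 42.6% held a GC box, 32.2% the xenobiotic response core, 32% a CCAAT box and 6.34% the E-box. Members that passed no test held such elements too. The SLC22A16 run held 3 GC boxes, and each AKR1B1 run 1 GC box and 1 xenobiotic response core. ABCG2 runs held 2 GC boxes and 1 E-box at some start sites and 0 of either at others. The ABCB1 runs held 0 GC boxes. A link between these elements and the changes below was not tested. Promoters of ABCC1 and CBR3 were not analysed here.

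On the scale of level per length (CPM per kb of the canonical transcript), AKR1A1, an aldehyde reductase that also reduces anthracyclines, stood first in every group. It was at 98.0 ± 8.48 CPM per kb in ML-792+DNR, 89.4 ± 4.92 in DNR, 71.5 ± 4.44 in ML-792 and 71.6 ± 1.37 in DMSO (SD, n = 3). CBR1, the main cytosolic carbonyl reductase, was at 21.5 ± 3.39 CPM per kb in ML-792+DNR, 14.3 ± 1.67 in DNR, 19.4 ± 2.65 in ML-792 and 15.5 ± 2.34 in DMSO. AKR7A2, an aflatoxin aldehyde reductase, was at 17.1 ± 2.104 CPM per kb in ML-792+DNR, 15.7 ± 1.35 in DNR, 11 ± 1.47 in ML-792 and 11.6 ± 1.09 in DMSO. CBR1 and AKR7A2 were neighbours whose levels did not differ beyond their spread in ML-792+DNR or DNR, and AKR7A2 had the higher mean in DNR while CBR1 had it in the other 3 groups. ABCC1, the multidrug resistance protein that exports glutathione conjugates and anthracyclines, was at 6.57 ± 0.432 CPM per kb in ML-792+DNR, 7.28 ± 0.492 in DNR, 9.54 ± 1.00 in ML-792 and 9.85 ± 0.423 in DMSO. SLC22A16, a carnitine and organic cation carrier, lay between 0.556 and 0.874 CPM per kb as group means, and ABCG2, the breast cancer resistance protein, between 0.0661 and 0.108. In ML-792, AKR7A2 and ABCC1 did not differ beyond their spread.

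**Figure D1:**
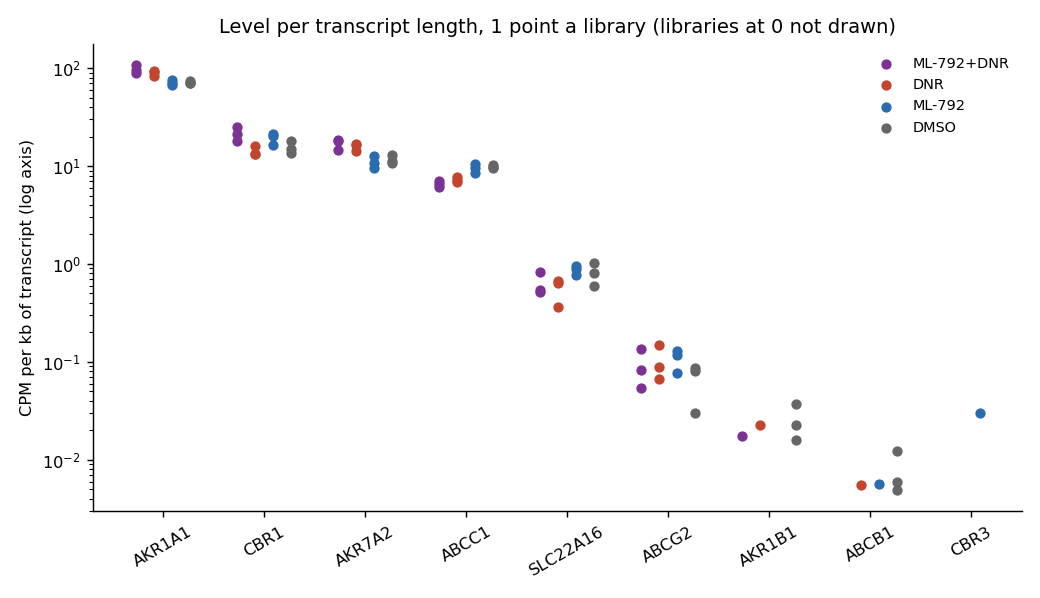
CPM per kb of transcript (log axis) for the 9 genes, 1 point a library, coloured by group in the order ML-792+DNR, DNR, ML-792, DMSO. AKR1A1 lies above 60 CPM per kb in all 12 libraries, and AKR1B1, ABCB1 and CBR3 have points only for the 5, 5 and 1 libraries with a read.

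Among the exporters, ABCC1 carried nearly all reads. Its level was 42.8, 45.6 and 39.9 CPM in the ML-792+DNR libraries and 46.7, 50.8 and 44.5 CPM in the DNR libraries, against 62.8, 68.2 and 55.2 CPM in the ML-792 libraries and 67.1, 63.3 and 61.8 CPM in the DMSO libraries (replicates 1, 2 and 3 in each). Every library with DNR was below every library without it. Such separation was common over all genes tested. The group with DNR lay wholly below in 23.6% of them in DNR against DMSO. That share was 24.5% in ML-792+DNR against DMSO and 21.5% in ML-792+DNR against ML-792. ABCC1 fell in DNR against DMSO (log2 -0.44 ± 0.09, SE; edgeR adjusted p = 0.00281), in ML-792+DNR against DMSO (log2 -0.58 ± 0.09, adjusted p = 0.000360) and in ML-792+DNR against ML-792 (log2 -0.54 ± 0.09, adjusted p = 0.000733). It was the only member that fell in each of these comparisons, where 15.7%, 18.4% and 17.4% of the genes tested fell. In DNR against DMSO it did not pass with replicates 2 and 3 only (adjusted p = 0.0700). ML-792 against DMSO gave a log2 difference of -0.05 ± 0.09 (adjusted p = 1), and ML-792+DNR against DNR one of -0.15 ± 0.09 (adjusted p = 0.553).

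ABCC1 is a long gene, with 31 exons over 194.1 kb (GRCh37 chromosome 16, 16042995 to 16237114). Of the genes tested, 12332 (90%) matched a gene with a known span. Of the 2236 among them that span 100 kb or more, 25.6% fell in DNR against DMSO and 37.8% in ML-792+DNR against DMSO, with median log2 changes of -0.14 and -0.24. Of the 2763 genes under 10 kb, 10.3% and 7.64% fell and 15.6% and 25.3% rose, with median log2 changes of 0.12 and 0.24. CBR1 (3.23 kb) and AKR7A2 (8.18 kb) are in this shortest class, and AKR1A1 (19.5 kb) is in the class of 10 to 30 kb. In the class of 10 to 30 kb 14.5% and 14.2% fell and 18.3% and 21.7% rose. The part of gene length in these changes was not tested.

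**Figure D2:**
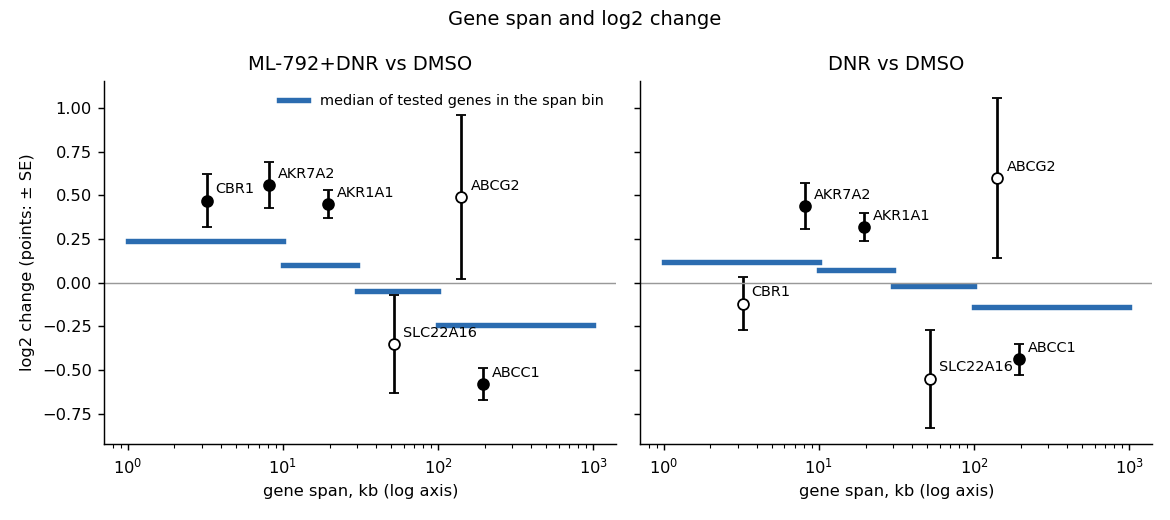
Fitted log2 change (± SE) of the 6 tested genes against the span of the gene in kb (log axis), left for ML-792+DNR against DMSO and right for DNR against DMSO; filled points passed the test, and blue lines are medians of tested genes with a known span in a class. ABCC1 lies below the median of its class (-0.24 and -0.14) in both comparisons, and AKR1A1 and AKR7A2 lie above theirs.

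ABCG2 and ABCB1 gave few reads. ABCG2 was at 0.229, 0.575 and 0.344 CPM in ML-792+DNR, 0.375, 0.620 and 0.281 CPM in DNR, 0.499, 0.537 and 0.323 CPM in ML-792, and 0.367, 0.340 and 0.127 CPM in DMSO. The ranges of all groups overlapped, and a log2 difference of 0.60 ± 0.46 in DNR against DMSO and of 0.70 ± 0.45 in ML-792 against DMSO did not pass (adjusted p = 0.362 and 1). These values rest on 164 reads in the 12 libraries. ABCB1, P-glycoprotein (GRCh37 chromosome 7, 87132333 to 87342639), had 0 reads over the ML-792+DNR group, 1 over DNR, 1 over ML-792 and 5 over DMSO. It was not tested, and a count of 0 over the ML-792+DNR group allows up to 0.0296 CPM (3 counts; counting error only). A level this low was not resolved at this depth, so that no difference of ABCB1 between groups was detectable.

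SLC22A16, the carrier through which anthracyclines can be taken up, was at 1.01, 1.63 and 1.07 CPM in ML-792+DNR, 0.720, 1.24 and 1.31 CPM in DNR, 1.52, 1.88 and 1.74 CPM in ML-792, and 1.60, 1.18 and 1.99 CPM in DMSO. DNR and DMSO libraries overlapped through DMSO replicate 2, the lowest of its group. The log2 difference was -0.55 ± 0.28 in DNR against DMSO (adjusted p = 0.161), -0.45 ± 0.28 in ML-792+DNR against ML-792 (adjusted p = 0.233) and -0.35 ± 0.28 in ML-792+DNR against DMSO (adjusted p = 0.351), none past the threshold. ML-792 against DMSO gave 0.10 ± 0.27 (adjusted p = 1).

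Among the reductases, AKR1A1 was at 150.6, 127 and 136 CPM in the ML-792+DNR libraries and 132, 118 and 127 CPM in the DNR libraries, against 98.7, 108 and 95.5 CPM in the ML-792 libraries and 99.7, 103 and 99.6 CPM in the DMSO libraries. The 6 libraries with DNR all lay above the 6 without it. Of all genes tested, 23% lay wholly higher in DNR against DMSO. That share was 24.2% in ML-792+DNR against DMSO and 21.3% in ML-792+DNR against ML-792. AKR1A1 rose in DNR against DMSO (log2 0.32 ± 0.08, adjusted p = 0.00726), in ML-792+DNR against DMSO (log2 0.45 ± 0.08, adjusted p = 0.000699) and in ML-792+DNR against ML-792 (log2 0.45 ± 0.08, adjusted p = 0.000760). With replicates 2 and 3 only it did not pass in DNR against DMSO (adjusted p = 0.0950).

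AKR7A2 was at 24.7, 19.98 and 25.2 CPM in ML-792+DNR and 22.7, 19.3 and 22.1 CPM in DNR, against 13.1, 14.7 and 17.1 CPM in ML-792 and 14.6, 15.3 and 17.5 CPM in DMSO. Again no library with DNR reached down to one without it. Of all genes tested, 23% lay wholly higher in DNR against DMSO, 24.2% in ML-792+DNR against DMSO and 21.3% in ML-792+DNR against ML-792. AKR7A2 rose in DNR against DMSO (log2 0.44 ± 0.13, adjusted p = 0.0202), in ML-792+DNR against DMSO (log2 0.56 ± 0.13, adjusted p = 0.00464) and in ML-792+DNR against ML-792 (log2 0.64 ± 0.13, adjusted p = 0.00224). The rise in DNR against DMSO was lost on leaving out DMSO replicate 1 (adjusted p = 0.0991), DMSO replicate 2 (0.0679), DNR replicate 1 (0.0891) or DNR replicate 3 (0.0659). In replicate 1, whose libraries had the highest mitochondrial shares (6.27% in DNR and 4.01% in DMSO), the log2 difference was 0.62, against 0.32 and 0.33 in replicates 2 and 3, and with replicates 2 and 3 only the adjusted p was 0.205. With those replicates alone it did not pass in ML-792+DNR against DMSO (0.0783) or against ML-792 (0.0647) either. The part of the mitochondrial share was not tested. Reads that map more than once are dropped by the counter, and 4.73% of 50-base windows of the AKR7A2 transcript (GRCh37 chromosome 1, 19630459 to 19638638) have another exact copy in the genome.

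CBR1 had its highest mean in ML-792+DNR and its lowest in DNR. It was at 21.9, 30.1 and 26.0 CPM in the ML-792+DNR libraries and 15.96, 19.5 and 16.1 CPM in the DNR libraries, against 19.8, 24.6 and 25.9 CPM in the ML-792 libraries and 16.5, 21.9 and 17.9 CPM in the DMSO libraries. The ML-792+DNR libraries all lay above the DNR libraries, as was so for 8.89% of all genes tested. The lowest ML-792+DNR library and the highest DMSO library both stood at 21.9 CPM. CBR1 rose in ML-792+DNR against DMSO (log2 0.47 ± 0.15, adjusted p = 0.0235). That rise was lost on leaving out DMSO replicate 1 (adjusted p = 0.118), DMSO replicate 3 (0.0841), ML-792+DNR replicate 2 (0.0885) or ML-792+DNR replicate 3 (0.0548). It was also lost with replicates 2 and 3 only (0.0536), or on unscaled library sizes (0.0618). With the replicate number as a block it passed (edgeR adjusted p = 0.000830). The log2 differences within replicates 1, 2 and 3 were 0.40, 0.45 and 0.52. In DNR against DMSO the log2 difference was -0.12 ± 0.15 (adjusted p = 0.579), and in ML-792 against DMSO 0.32 ± 0.15 (adjusted p = 0.982, unadjusted p = 0.0482).

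Between ML-792+DNR and DNR, CBR1 stood 1.51-fold higher (log2 0.60 ± 0.15, edgeR adjusted p = 0.0852), the largest difference among the 6 genes in that comparison. It did not pass in this main fit, which took no account of the replicate number. Libraries of the same replicate number varied together in that comparison. With the replicate number as a block CBR1 passed (log2 0.59, edgeR adjusted p = 0.00345), with log2 differences of 0.45, 0.61 and 0.67 within replicates 1, 2 and 3. It also passed with DESeq2 (adjusted p = 0.0110) and without the filter on low counts (0.0104). Leaving out 1 library at a time gave adjusted p-values of 0.0689 to 0.322 without the block. In the main fit 0 of the 6 genes tested passed in this comparison, in which 0.270% of all genes tested rose and 0.518% fell. In ML-792+DNR against ML-792, CBR1 gave 0.15 ± 0.15 (adjusted p = 0.455). The granule genes PRTN3 and AZU1 had higher means in both groups with ML-792. PRTN3 averaged 320 CPM in ML-792+DNR, 162 in DNR, 343 in ML-792 and 122 in DMSO, and AZU1 67.1, 41.7, 69.9 and 39.3 CPM in the same order. ELANE also had higher means with ML-792, at 1.675, 0.762, 1.81 and 0.6744 CPM. CD33 went the other way, at 60.35, 64.52, 77.55 and 90.73 CPM. MPO was at 10850, 10320, 11260 and 11260 CPM, with no such difference between ML-792 and DMSO. The highest single library stood at 777 CPM for PRTN3, 112 for AZU1 and 4.03 for ELANE, so a mean with ML-792 can rest largely on 1 library. The differences between these marker means were not tested. The part of these markers in the CBR1 values was not tested either.

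**Figure D3:**
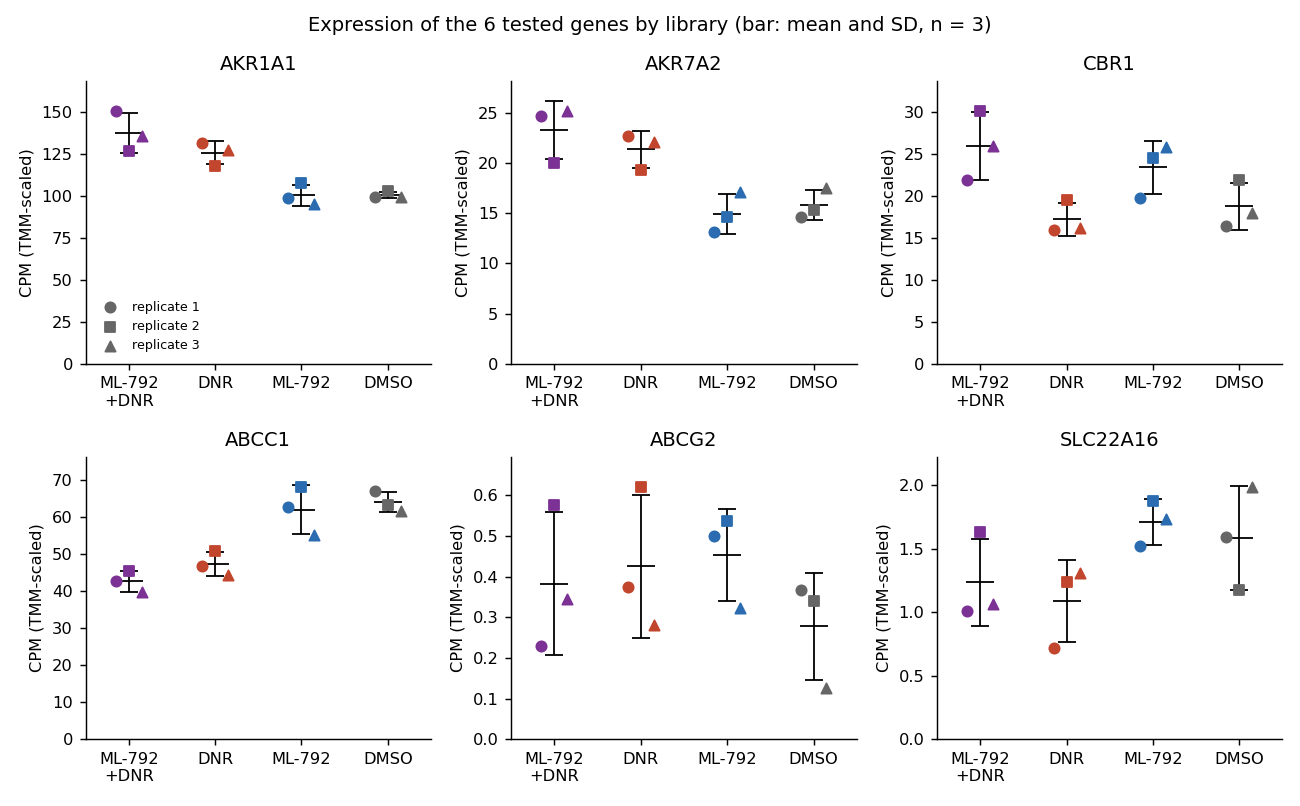
CPM of the 6 tested genes in each library, by group in the order ML-792+DNR, DNR, ML-792, DMSO; marker shape gives the replicate number and bars the mean and SD (n = 3). The DNR-treated groups are apart from the other 2 for AKR1A1, AKR7A2 and ABCC1. In DNR against DMSO, 23% of all genes tested lay wholly higher and 23.6% wholly lower. CBR1 has its lowest mean in DNR (15.96 to 19.5 CPM) and its highest in ML-792+DNR (21.9 to 30.1 CPM).

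CBR1 (GRCh37 chromosome 21, 37442239 to 37445464) lies inside the span of SETD4 on the opposite strand, with no shared exon base. SETD4, a lysine methyltransferase gene, was at 22.6 ± 1.28 CPM in ML-792+DNR, 23.0 ± 1.37 in DNR, 25.9 ± 2.29 in ML-792 and 26.2 ± 1.22 in DMSO, and passed in no comparison. An antisense transcript, CBR1-AS1, shares 464 exon bases with CBR1 and was not analysed here. The library kit kept the strand, but whether reads were counted by strand is not stated in the methods or labels. If they were not, reads of CBR1-AS1 cannot be told apart from those of CBR1. A long noncoding RNA on the same strand shares 381 exon bases with CBR1 and was also not analysed here. Counting by strand cannot tell its reads from the shared bases apart from those of CBR1.

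CBR3, the close relative of CBR1 on the same chromosome (37507377 to 37518860), had 1 read in all, in an ML-792 library, and AKR1B1, aldose reductase, had 6: 1 over ML-792+DNR, 1 over DNR, 0 over ML-792 and 4 over DMSO. Neither was tested. Of the AKR1B1 transcript, 7.85% of 50-base windows have another copy in the genome. The antisense gene CBR3-AS1 overlaps CBR3 by 710 exon bases and had 11, 10 and 18 reads in the ML-792+DNR libraries and 21, 7 and 19 in the DNR libraries, against 1, 3 and 4 in the ML-792 libraries and 4, 0 and 2 in the DMSO libraries. Every library with DNR had more than every library without it. Of all genes tested, 23% lay wholly higher in CPM in DNR against DMSO, 24.2% in ML-792+DNR against DMSO and 21.3% in ML-792+DNR against ML-792. CBR3-AS1 rose in DNR against DMSO (log2 3.15 ± 0.68, adjusted p = 0.00342), in ML-792+DNR against DMSO (log2 2.89 ± 0.70, adjusted p = 0.00617) and in ML-792+DNR against ML-792 (log2 2.32 ± 0.67, adjusted p = 0.0163). These values rest on 100 reads in all. Leaving out DMSO replicate 1 gave log2 changes of 3.91 in DNR and 3.66 in ML-792+DNR against DMSO, and leaving out DMSO replicate 2 gave 2.69 and 2.44. The rise against ML-792 did not pass without ML-792 replicate 1 (adjusted p = 0.0704) or ML-792+DNR replicate 3 (0.0716), or with replicates 2 and 3 only (0.148). If strand was not used in counting, reads of CBR3-AS1 and CBR3 from the shared bases cannot be told apart either.

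Over the 6 genes tested, 2 rose in DNR against DMSO, where 14.2% of all genes tested rose, 3 in ML-792+DNR against DMSO, where 16.9% rose, and 2 in ML-792+DNR against ML-792, where 16.2% rose. These comparisons share libraries, and are not independent of each other. None of the 6 passed in ML-792 against DMSO, where 0.183% of genes rose and 0.0584% fell. The interaction asks whether DNR changed a gene by a different amount with ML-792 present. Its log2 values were 0.28 ± 0.21 for CBR1, 0.20 ± 0.18 for AKR7A2, 0.13 ± 0.11 for AKR1A1, 0.10 ± 0.40 for SLC22A16, -0.10 ± 0.13 for ABCC1 and -0.80 ± 0.64 for ABCG2, each with an adjusted p of 0.999 in edgeR. No gene of all 13696 passed (0%); 490 had an unadjusted p under 0.05, 0 of the 6 among them, and DESeq2 called 17 genes. No member passed at the 2-fold change that the study required, which 6.96% of genes met in DNR against DMSO, 0.0803% in ML-792 against DMSO, 6.42% in ML-792+DNR against DMSO, 0.183% in ML-792+DNR against DNR and 6.30% in ML-792+DNR against ML-792.

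**Figure D4:**
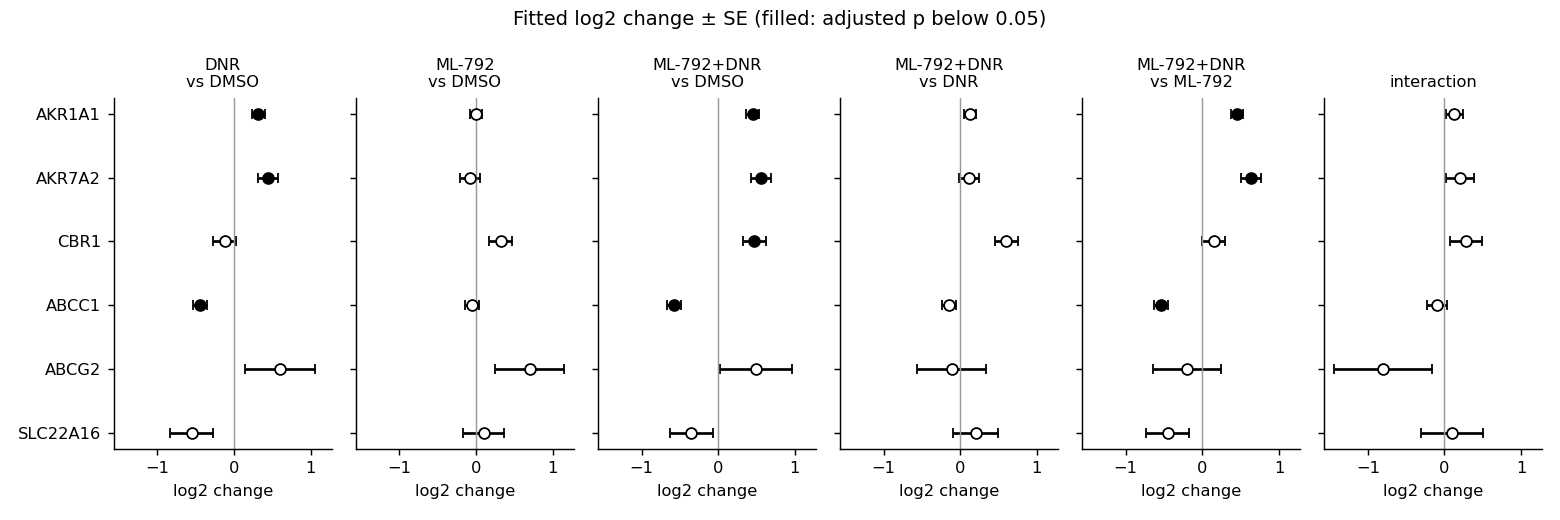
Fitted log2 change (± SE) of the 6 tested genes in the 5 comparisons between groups and in the interaction; filled points passed at an adjusted p below 0.05. AKR1A1 and AKR7A2 are filled on the right and ABCC1 on the left in the 3 comparisons that add DNR, with or without ML-792, to a group lacking it, and CBR1 is filled in ML-792+DNR against DMSO alone.

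For the transport genes outside the 9, counts are set beside the shares of all genes tested. Of 7 other drug exporters tested of 11 listed, 1 rose and 1 fell in DNR against DMSO, where 14.2% of all genes rose and 15.7% fell. Their median log2 change was 0.35, against 0.01 over all genes tested. In ML-792+DNR against DMSO 1 rose and 1 fell (median -0.02, against 0.02), where 16.9% of all genes rose and 18.4% fell. ABCC5, an exporter of cyclic nucleotides, averaged 42.6 CPM in ML-792+DNR, 49.7 in DNR, 33.0 in ML-792 and 36.1 in DMSO, and rose in DNR against DMSO (log2 0.46 ± 0.09, adjusted p = 0.00141), while its pass in ML-792+DNR against DMSO was lost in 13 of 20 alternatives. Of 7 other cation and nucleoside carriers tested of 10, 1 rose and 2 fell in DNR against DMSO, where 14.2% of all genes rose and 15.7% fell. The rise, of SLC29A3, lost its pass in 15 of 20 alternatives, and the fall of SLC22A5 in 4 of 20. SLC29A2, an equilibrative nucleoside transporter, averaged 32.9 CPM in ML-792+DNR and 27.8 in DNR, against 62.7 in ML-792 and 62.5 in DMSO, and fell in DNR against DMSO (log2 -1.17 ± 0.10, adjusted p = 1.78e-06) and in ML-792+DNR against ML-792 (log2 -0.93 ± 0.10, adjusted p = 2.07e-05).

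Among the reducing enzymes outside the 9, counts are set beside the 14.2% of all genes that rose in DNR against DMSO, 16.9% in ML-792+DNR against DMSO and 16.2% in ML-792+DNR against ML-792. With the replicate block 5732, 6629 and 6291 of the 13696 genes tested passed in these comparisons, in either direction. Of 6 other carbonyl and ketone reductases tested of 14, 1 rose and 0 fell in DNR against DMSO. In ML-792+DNR against DMSO 3 rose and 0 fell (median log2 0.62, against 0.02 over all genes). In ML-792+DNR against ML-792 2 rose and 0 fell. With the replicate block the counts were 2 and 1, 3 and 0, and 3 and 1 in that order. DCXR, which reduces xylulose and dicarbonyls, averaged 40.01 CPM in ML-792+DNR, 27.4 in DNR, 25.6 in ML-792 and 19.7 in DMSO, and rose in ML-792+DNR against DMSO (log2 1.02 ± 0.25, adjusted p = 0.00888). Of 10 quinone reductases tested of 11, 4 rose and 0 fell in each comparison of a group with DNR against DMSO or ML-792 (ML-792+DNR against DMSO median log2 0.26, against 0.02). With the replicate block 5 rose and 1 fell in each of these comparisons. In DNR against DMSO, TXNRD1, thioredoxin reductase, lost its pass in 9 of 20 alternatives and POR in 4. NQO2, a quinone reductase that uses dihydronicotinamide riboside, averaged 14.7 CPM in ML-792+DNR and 12.3 in DNR, against 7.08 in ML-792 and 6.64 in DMSO (ML-792+DNR against DMSO log2 1.14 ± 0.14, adjusted p = 4.49e-05). NQO1, its NAD(P)H-dependent relative, averaged 17.3 CPM in ML-792+DNR and 17.8 in DNR, against 10.8 in ML-792 and 10.7 in DMSO (DNR against DMSO log2 0.73 ± 0.15, adjusted p = 0.00290; 0.0589 with replicates 2 and 3 only). POR, the cytochrome P450 reductase that can pass electrons to the anthracycline quinone, rose in ML-792+DNR against DMSO (log2 0.53 ± 0.12, adjusted p = 0.00386).

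All 11 glutathione genes listed were tested. In DNR against DMSO 2 rose and 0 fell (median log2 0.15, against 0.01), where 14.2% of all genes rose. In ML-792+DNR against DMSO 6 rose and 0 fell (median 0.23, against 0.02), where 16.9% rose. In ML-792+DNR against ML-792 4 rose and 0 fell (median 0.20, against 0.02), where 16.2% rose. With the replicate block 3, 9 and 8 rose and 0 fell in these comparisons. Of the 13696 genes tested, 5732, 6629 and 6291 passed there with the block, in either direction. Of the 2 in DNR against DMSO, GSTK1, a glutathione transferase of the kappa class, lost its pass in 9 of 20 alternatives. GCLC, the catalytic subunit of the enzyme that starts glutathione synthesis, averaged 105.6 CPM in ML-792+DNR and 106 in DNR, against 87.9 in ML-792 and 78.6 in DMSO (DNR against DMSO log2 0.43 ± 0.09, adjusted p = 0.00219). GSTO1, a glutathione transferase of the omega class, averaged 161 CPM in ML-792+DNR, 143 in DNR, 122 in ML-792 and 119.8 in DMSO (ML-792+DNR against DMSO log2 0.43 ± 0.11, adjusted p = 0.00853; 0.0568 without DMSO replicate 1).

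Of 17 listed regulators of these genes, 16 were tested. In DNR against DMSO 5 rose and 1 fell, where 14.2% of all genes tested rose and 15.7% fell. In ML-792+DNR against DMSO 5 rose and 4 fell, where 16.9% and 18.4% did. In ML-792+DNR against ML-792 6 rose and 2 fell, where 16.2% and 17.4% did. In ML-792+DNR against DNR 1 fell, where 0.518% of all genes fell. With the replicate block 4 fell there, where 585 of the 13696 genes tested passed in either direction. NFE2L2, the factor NRF2 that binds antioxidant response elements of genes such as NQO1 and GCLC, averaged 68.3 CPM in ML-792+DNR, 93.9 in DNR, 49.3 in ML-792 and 49.4 in DMSO. It rose in DNR against DMSO (log2 0.92 ± 0.08, adjusted p = 3.96e-06) and in ML-792+DNR against DMSO (log2 0.47 ± 0.08, adjusted p = 0.000888), and fell in ML-792+DNR against DNR (log2 -0.46 ± 0.08, adjusted p = 0.0232). The last did not pass without DNR replicate 1 (adjusted p = 0.0758), DNR replicate 2 (0.0676), DNR replicate 3 (0.0606), ML-792+DNR replicate 1 (0.0758) or ML-792+DNR replicate 3 (0.0938). NFYA, a subunit of the CCAAT-binding factor NF-Y, averaged 39.7 CPM in ML-792+DNR and 43.7 in DNR, against 112 in ML-792 and 109 in DMSO, and fell in DNR against DMSO (log2 -1.32 ± 0.22, adjusted p = 0.000849). NFYB, its partner subunit, averaged 96.1 CPM in ML-792+DNR and 101.9 in DNR, against 67.9 in ML-792 and 59.7 in DMSO, and rose in DNR against DMSO (log2 0.77 ± 0.10, adjusted p = 8.37e-05). EGR1, an immediate early zinc finger factor, averaged 50.7 CPM in ML-792+DNR, 109 in DNR, 18.3 in ML-792 and 19.0 in DMSO (DNR against DMSO log2 2.52 ± 0.24, adjusted p = 2.17e-05). In ML-792+DNR against DNR it gave -1.10 ± 0.23 (adjusted p = 0.0547, and 0.0426 with the replicate block). SP1, which binds GC boxes, averaged 111 CPM in ML-792+DNR, 139 in DNR, 148 in ML-792 and 155 in DMSO, and fell in ML-792+DNR against DMSO (log2 -0.48 ± 0.09, adjusted p = 0.00172). In ML-792+DNR against DNR it gave an adjusted p of 0.156, and of 0.0273 with the replicate block.

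The genes whose level over the 12 libraries was most like that of each member that passed were found by Pearson's r of log2(CPM + 0.5). The libraries share their 4 treatments, so r is a description. For ABCC1 these were PIK3CB, a phosphoinositide kinase subunit (r = 0.993), LCLAT1 (0.992) and TCF12 (0.987). For AKR1A1 they were NANS, a sialic acid synthase (r = 0.986), EIF2B2 (0.979) and ACVR2B-AS1 (0.979). For AKR7A2 they included DNAJC4 (r = 0.984) and LOC100996842 (0.981). CBR1 had lower values, with TSEN54, a tRNA splicing subunit (r = 0.952), HMOX2, the constitutive heme oxygenase (0.925), and CHST7 (0.915).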

How the data were processed

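The authors aligned single-end reads of the 12 libraries by TopHat2 2.1.1 with Bowtie2 2.3.5.1 (GRCh37) and obtained raw counts per gene from HTSeq 0.11.1, which the deposited table holds. Its 5 counter lines were left out. The deposited normalized table and the authors' table of DESeq2 fold changes and p-values were not used. The kit was TruSeq Stranded mRNA. Neither the annotation nor the strand setting used in counting is stated (an NCBI annotation of GRCh37 is named for promoters only). In R 4.3.3, edgeR 4.0.16 (quasi-likelihood, TMM factors 0.954 to 1.04, filterByExpr with a minimum count of 10 and total of 15) used all 12 libraries and a term for group, for 5 comparisons and the interaction, (ML-792+DNR minus ML-792) minus (DNR minus DMSO), with Benjamini-Hochberg adjustment over the 13696 genes tested. An exact permutation test of 3 against 3 libraries cannot go below 0.1 and was not used.

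Samples were grouped by the labelled treatment. Same-numbered libraries deviated together, with r over 0.1 for every number, in the 4 comparisons that include ML-792, with or without DNR. In DNR vs DMSO r was 0.0852, 0.249 and 0.336 for replicates 1, 2 and 3, against at most 0.00401 for different numbers. The main fit took no account of the replicate number. Over all groups r was 0.0722 to 0.587 for same and -0.498 to 0.0913 for different numbers. Alternatives were DESeq2 1.42.0, other scalings and filters, the replicate block, fewer groups and leaving out libraries. Members and gene lists were chosen with earlier results of these data known. All 9 members were named, and of each other list up to 4 of the genes that passed with the largest change. Some genes that this rule or the search for like patterns picked are not reported here, though counts over a list include them. Gene positions came from GENCODE on GRCh37. There were no molecular identifiers, so floors cover counting error only, and p-values measure the spread between these cultures.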

Additional observations from a re-analysis of the deposited data

How the results depend on the processing

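Counts of members that passed with replicates 2 and 3 only were 0 in DNR vs DMSO and 2 in ML-792+DNR vs DMSO. In ML-792+DNR vs DNR 1 member, CBR1, passed with DESeq2, without the count filter and with the replicate block. In the paired fit with that replicate block the passing genes of all tested numbered 5732 in DNR vs DMSO, 172 in ML-792 vs DMSO, 6629 in ML-792+DNR vs DMSO, 585 in ML-792+DNR vs DNR, 6291 in ML-792+DNR vs ML-792 and 3 in the interaction, and it changed no other call of a member. Among the genes named above from the other lists it also added GSTO1 (rose, DNR vs DMSO) and TXNRD1 (rose, ML-792+DNR vs DMSO). It further added SLC22A5 (fell, ML-792+DNR vs DMSO and vs ML-792), and EGR1 and SP1 (fell, ML-792+DNR vs DNR).

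The count of all genes that passed without the block was 4104 in DNR vs DMSO (1915 with replicates 2 and 3 only), 4825 in ML-792+DNR vs DMSO (2137) and 4606 in ML-792+DNR vs ML-792 (1765). For ML-792 vs DMSO it was 33, against 117 with DESeq2, 21 on library size only, 64 without the filter and 4 with replicates 2 and 3 only. For ML-792+DNR vs DNR it was 108, against 376 with DESeq2, 178 without the filter, 2 with replicates 2 and 3 only and 20 from those groups alone. The interaction gave 17 genes with DESeq2 and 2 without the filter. With a change of at least 2-fold also required, counts on a mean of at least 1 CPM were 605 in DNR vs DMSO, 541 in ML-792+DNR vs DMSO and 547 in ML-792+DNR vs ML-792, and 568, 490 and 446 with replicates 2 and 3 only. For ML-792 vs DMSO they were 21 (DESeq2), 19 (no filter), 24 (block) and 4 (replicates 2 and 3), for ML-792+DNR vs DNR 51 (block), 2 (replicates 2 and 3) and 8 (those groups alone), and for the interaction 7 (DESeq2), 2 (no filter) and 3 (block). The causes were not tested.

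Leaving out 1 library at a time, members that passed numbered 2 to 3 in DNR vs DMSO, 3 to 4 in ML-792+DNR vs DMSO, 3 in ML-792+DNR vs ML-792 and 0 elsewhere. All passing genes ranged from 2625 (without DNR replicate 1) to 4336 in DNR vs DMSO, 5 (without DMSO replicate 1) to 45 in ML-792 vs DMSO, 3242 to 5146 in ML-792+DNR vs DMSO, 2 (without DNR replicate 3) to 122 in ML-792+DNR vs DNR, 2944 (without ML-792+DNR replicate 1) to 5043 in ML-792+DNR vs ML-792 and 0 to 1 in the interaction. With 2-fold the ranges were 701 to 1125, 5 to 14, 658 to 1155, 1 to 23, 604 to 1164 and 0 to 1 in that order.

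No call of a member turned direction. Differences that did not pass did so near 0. AKR1A1 in ML-792 vs DMSO was 0.0019 on a mean of at least 1 CPM, 0.0037 with replicates 2 and 3 only and 0.003 from those groups alone (-0.05 to 0.03 without 1 library), where ABCC1 spanned -0.12 to 0.03, AKR7A2 -0.19 to 0.01 and SLC22A16 -0.06 to 0.29. ABCG2 was 0.07 in ML-792+DNR vs DNR (-0.57 to 0.26) and 0.12 in ML-792+DNR vs ML-792 (-0.66 to 0.04) with replicates 2 and 3 only. SLC22A16 spanned -0.06 to 0.35 in ML-792+DNR vs DNR, and was -0.08 in the interaction with replicates 2 and 3 only (-0.16 to 0.27). Of 1194 alternative values of other named genes 145 lost their pass and 0 turned. Depth limits ABCB1, CBR3 and AKR1B1, which could not be tested.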
